A study of Mus musculus with 8 samples.

Results

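The genes described here are 38 genes of fatty acid oxidation and of the PPAR-alpha programme, measured in mouse liver. They were chosen by symbol: each transcript cluster of the array (a probe group that reads 1 gene or transcript) whose single annotated gene symbol was one of these names was taken, with no filter on signal. The rule found 39 clusters for the 38 genes among 35556 clusters on the array. Of the genes, 18 act in the mitochondrion, 12 in the peroxisome and 2 in both organelles, 2 are cytosolic thioesterases, and 4 are regulators or their secreted or surface products. Male C57Bl/6J mice ate food in which fat supplied 13% (low fat diet, LFD) or 42% (high fat diet, HFD) of calories. Their deionized water held either nothing more or sodium arsenite, at 3 mg iAs/L (inorganic arsenic), which gave the further groups LFD+As and HFD+As. Exposure lasted 10 weeks by the protocol text, while the source label of the samples gives 90 days, and the labels do not settle which is right. Each of the 4 groups had 10 mice, and liver total RNA was read on 2 arrays per group, each a pool of 5 mice. All mice were of 1 strain and sex and the labels name no engineered allele. With pooled animals, spread between single mice is not seen. Every p-value below measures only the spread between pools, with each gene's spread drawn toward that of all genes tested.

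Mitochondria take long-chain fatty acids through the carnitine shuttle and shorten them in repeated rounds of dehydrogenation, hydration, a further dehydrogenation and thiolysis. Peroxisomes shorten very long-chain, branched and dicarboxylic fatty acids and pass the products on. PPAR-alpha is a nuclear receptor that fatty acids and fibrate drugs bind. With its partner RXR it binds direct repeats of a hexamer spaced by a single base, and in liver it raises many genes of both organelles in fasting.

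Because the list includes genes of the PPAR-alpha programme, the promoters were searched for the repeat that this receptor binds. Which of the genes are its targets was not tested. RefSeq promoter windows (assembly GRCm38.p6, from 250 bases before to 50 bases after the start site) were found for 33 of the 38 genes, 36 windows in all. The motif was AGGTCANAGGTCA, where N is any base, on both strands, with up to 2 mismatches in its 12 fixed letters. It occurred in 5 of the 36 windows (13.9%), against 1268 of all 32851 promoter windows (3.86%). The 5 matches are shown 5′ to 3′ on the motif's strand so that they can be compared, with capitals at the bases that differ from the motif.
Acot12: aggtGagaggtca
Acot4: CggCcaaaggtca
Creb3l3: aggGGagaggtca
Etfa: aggGcaaaggtAa
Slc25a20: aggtGaaaggtcG
The match of Acot12, a cytosolic acyl-CoA thioesterase, had 1 mismatch and the others had 2. The hexamer AGGTCA alone, which lies within the repeat, occurred in 8 of the windows (22.2%), against 16.3% of all windows. A match is a likeness of letters and does not show binding. None of the 5 genes with a match was called in any comparison of the groups, in which at most 16% of all genes were called.

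Slc25a20, the carnitine-acylcarnitine carrier of the inner mitochondrial membrane, is shown whole because its response to arsenite differed most between the diets among these genes, though not past the test. Its window is chr9:108661886-108662185 on the plus strand of GRCm38.p6, with the repeat-like match in capitals, after the start site.
Slc25a20: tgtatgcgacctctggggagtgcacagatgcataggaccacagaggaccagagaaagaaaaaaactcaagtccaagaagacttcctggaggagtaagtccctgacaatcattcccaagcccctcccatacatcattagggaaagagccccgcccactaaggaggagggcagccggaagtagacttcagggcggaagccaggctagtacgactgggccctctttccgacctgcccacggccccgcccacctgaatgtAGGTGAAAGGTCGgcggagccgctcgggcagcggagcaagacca
Hadhb is shown because it passed a test of the groups and Hadha did not. The neighbours encode the subunits of the mitochondrial trifunctional protein and start from the same stretch in opposite directions. The Hadhb window is chr5:30155003-30155302 on the plus strand, and the 228 bases in capitals also lie in the window of Hadha on the minus strand.
Hadhb: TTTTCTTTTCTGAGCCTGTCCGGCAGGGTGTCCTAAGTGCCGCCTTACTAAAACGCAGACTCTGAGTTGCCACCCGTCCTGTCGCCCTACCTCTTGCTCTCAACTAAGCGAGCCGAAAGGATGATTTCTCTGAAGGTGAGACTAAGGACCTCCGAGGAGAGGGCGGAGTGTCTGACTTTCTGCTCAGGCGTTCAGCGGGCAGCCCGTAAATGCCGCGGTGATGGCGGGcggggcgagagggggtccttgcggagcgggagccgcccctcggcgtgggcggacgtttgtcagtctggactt

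The 8 arrays had medians of 7.08 to 7.18 on the deposited log2 scale, on which all values below are given. A set of 11 hepatocyte markers averaged 13.61 to 13.75 on every array, and 1 of them fell in HFD+As against LFD. Markers of skeletal muscle averaged 6.90 to 7.03 and of adipocytes 6.28 to 6.53, at or below the median of all probes. Markers of sinusoidal endothelium averaged 9.14 to 9.15 in HFD+As against 9.32 to 9.74 in the other groups, and 4 of the 9 fell in HFD+As against LFD. Macrophage markers averaged 9.32 to 9.39 in LFD, 9.20 to 9.44 in LFD+As, 9.51 to 9.66 in HFD and 9.16 to 9.36 in HFD+As. Of the 12 tested, 2 fell in HFD+As against HFD, and 1 rose and 1 fell in HFD+As against LFD. In HFD+As against LFD, 1 of 9 stellate cell markers fell and 1 of the 2 neutrophil markers tested rose. Whether a lower value in whole liver is fewer cells of a type or less RNA per cell cannot be told apart, and the part of these cells in the results below was not tested. The arrays also differed by gene length. The rank correlation of each gene's deviation from its mean with its genomic span was -0.45 and -0.29 on the HFD+As arrays. It was 0.25 and -0.14 on the HFD arrays, which thus differed between pools, and 0.14 to 0.35 on the LFD and LFD+As arrays. The difference between HFD+As and LFD had a rank correlation of -0.41 with the genomic span of a gene across 11958 genes, which are not independent replicates, so the direction of the genes as a group is also given with that trend removed.

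**Figure D1:**
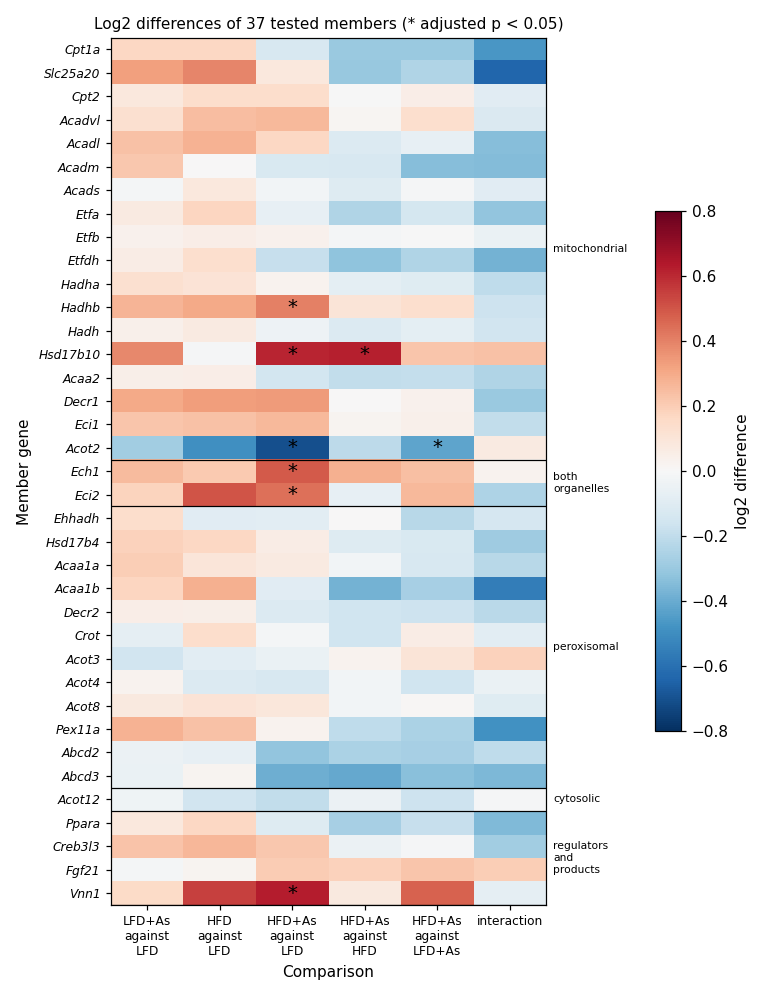
Log2 differences of the 37 genes tested (rows, grouped by organelle and role) in each comparison of groups (columns). Colour gives the size and direction and a star an adjusted p under 0.05 in limma; stars sit on 6 genes in HFD+As against LFD and on 1 gene in each of HFD+As against HFD and HFD+As against LFD+As.

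High fat diet with arsenite, compared with low fat diet alone, was the only comparison in which more than 1 of these genes passed the test. Against LFD, Hsd17b10, Vnn1, Ech1, Eci2 and Hadhb were higher in HFD+As and Acot2 was lower. The 5 that rose did so by 1.32-fold to 1.54-fold, and Acot2 was at 0.615 of its LFD level. Of the 37 genes that passed the signal filter, 5 were called higher and 1 lower by limma at a Benjamini-Hochberg adjusted p of 0.05. Over all 11963 genes tested, 16% were called in this comparison, 3.59% higher and 12.4% lower. The share of these genes called was 16.2%, near that background. The split by direction was 5 to 1 here and 430 to 1479 over all genes. Both comparisons with all genes depended on the scaling. With the gene-span trend removed 7 of the 37 were called, 6 higher and 1 lower. Of all genes 9.46% were then called, 544 higher and 587 lower, so the share lay further from the background, though on few genes. With array medians subtracted 4 of the 37 were called, against 8.47% of all genes, and under quantile normalization 8 were, against 16%.

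The direction of the whole group in HFD+As against LFD was not settled. The difference was above 0 for 19 of the 37 genes, against 33.4% of all genes, and their median was 0.03, against -0.10 for all genes tested, and the members' median turned to -0.0031 under quantile normalization. With the gene-span trend removed, 25 of 37 were above 0 and the median was 0.13, against 0.0019 for all genes. Both pools of HFD+As lay above both pools of LFD for 13 genes and below for 8 (all genes, 13.5% and 41.4%).

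**Figure D2:**
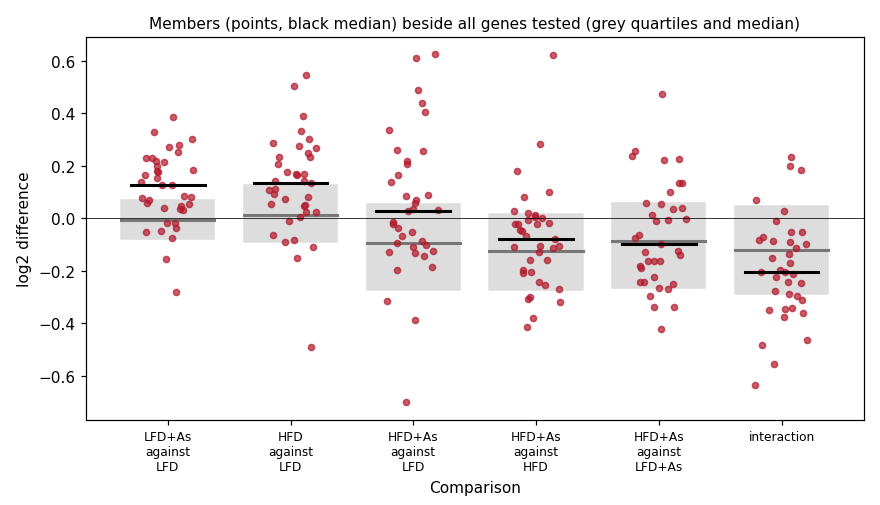
Log2 differences of the 37 tested genes (red points, black line at their median) and of all 11963 genes tested (grey box of quartiles, grey line at the median) in each comparison. The members' median lies at 0.13 in LFD+As against LFD and in HFD against LFD and at -0.20 in the interaction, where the median of all genes is -0.12; with the gene-span trend removed it is -0.05.

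Hsd17b10, a short-chain hydroxyacyl-CoA dehydrogenase that is also a subunit of mitochondrial ribonuclease P, read 12.21 and 12.26 in the LFD pools and 12.31 and 12.13 in the HFD pools. It read 12.81 and 12.43 in LFD+As and 12.75 and 12.94 in HFD+As. All 4 pools with arsenite lay above all 4 without it. The difference was 0.61 (SE 0.14, n = 2 pools against 2, adjusted p = 0.0134) in HFD+As against LFD and 0.62 (SE 0.14, adjusted p = 0.039) in HFD+As against HFD. In LFD+As against LFD it was 0.39, which did not pass (adjusted p = 0.9998). No other of these genes passed between HFD+As and HFD, where 3.63% of all genes were called and 0.376% were called higher.

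Acot2, the mitochondrial thioesterase that releases free fatty acid from long-chain acyl-CoA, read 10.46 and 10.21 in LFD and 10.04 and 10.07 in LFD+As. The HFD arrays gave 9.76 and 9.93, and those of HFD+As 9.69 and 9.57. The groups did not overlap, and each addition of fat or arsenite went with a lower reading. The difference between HFD+As and LFD was -0.70 (SE 0.12, adjusted p = 0.00555), and between HFD+As and LFD+As it was -0.42 (SE 0.12, adjusted p = 0.0475). It was the only one called between HFD+As and LFD+As, where 10.3% of all genes were called and 8.43% were called lower. Acot2 lies in a row of neighbouring genes with Acot1, Acot4 and Acot3, which are related in sequence, and how far their probes read each other's transcripts was not tested.

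Ech1 and Eci2, which move double bonds so that unsaturated fatty acids can be oxidised, both rose in HFD+As against LFD. Ech1 read 12.00 and 11.89 on the LFD arrays, 12.24 and 12.16 on LFD+As, 12.12 and 12.18 on HFD and 12.42 and 12.45 on HFD+As. Both HFD+As pools lay above every other pool, and the difference from LFD was 0.49 (SE 0.11, adjusted p = 0.0128). Eci2 read 9.79 and 9.60 on the LFD arrays, 9.83 and 9.92 on LFD+As, 10.21 and 10.20 on HFD and 10.32 and 9.95 on HFD+As. Its difference from LFD was 0.44 in HFD+As (SE 0.14, adjusted p = 0.0442) and 0.51 in HFD alone, where it did not pass (adjusted p = 0.167). All 4 HFD pools lay above all 4 LFD pools for Eci2, with or without arsenite.

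Vnn1, the pantetheinase that frees the vitamin part of coenzyme A and is a known PPAR-alpha target, had the same layout by diet. It read 10.21 and 10.12 on the LFD arrays, 10.29 and 10.35 on LFD+As, 10.74 and 10.68 on HFD and 11.04 and 10.54 on HFD+As. Every high fat pool lay above every low fat pool. The difference was 0.63 in HFD+As against LFD (SE 0.15, adjusted p = 0.0145). It was 0.54 in HFD against LFD (adjusted p = 0.167) and 0.47 in HFD+As against LFD+As (adjusted p = 0.0564), neither of which passed.

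Hadhb, the thiolase subunit of the trifunctional protein, read 10.67 and 10.49 on the LFD arrays, 10.93 and 10.77 on LFD+As, 10.86 and 10.91 on HFD and 10.94 and 11.03 on HFD+As. The LFD pools were the lowest of the 8, and the difference in HFD+As against LFD was 0.40 (SE 0.12, adjusted p = 0.0362). A further cluster of Hadhb on the array had the same layout, from 10.17 in an LFD pool to 10.70 in an HFD+As pool. It was read in the same pools and is not independent support, and whether both clusters read the same transcript was not tested. Hadha, the subunit with the hydratase and dehydrogenase activities, read 12.28 and 12.25 in LFD and 12.30 and 12.29 in HFD+As. Its difference was 0.03 (adjusted p = 0.883), and the difference between the responses of the subunits was not tested.

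**Figure D3:**
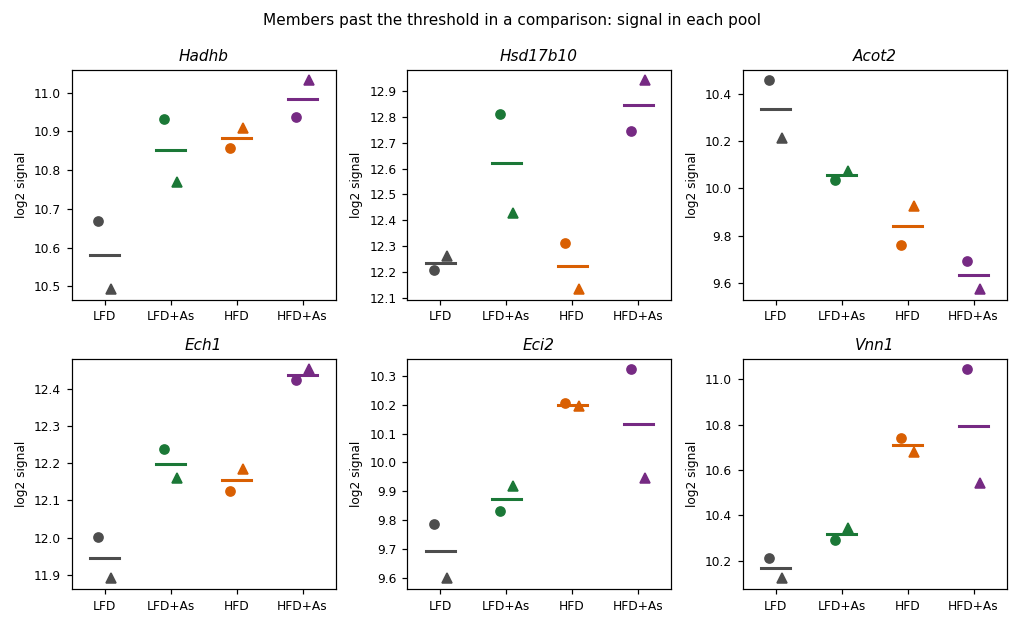
Log2 signal by group of the 6 genes past the threshold between HFD+As and LFD; circles are the pool of replicate 1, triangles that of replicate 2 and bars the mean of both. Hsd17b10 separates by arsenite (12.13 to 12.31 without, 12.43 to 12.94 with), Eci2 and Vnn1 by diet, and Acot2 steps down from 10.46 to 9.57.

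These calls rest on few pools. Omitting an LFD or HFD+As pool leaves a single pool in that group. Calls over all genes in HFD+As against LFD then also fell, so lost calls are not particular to these genes. Without LFD replicate 1, none of the 6 passed in HFD+As against LFD, with differences of -0.58 for Acot2 (adjusted p = 0.0505), 0.55 for Ech1, 0.58 for Hsd17b10, 0.67 for Vnn1, 0.53 for Eci2 and 0.49 for Hadhb. Only Acot2 passed without LFD replicate 2 and without HFD+As replicate 1. Without HFD+As replicate 1 the difference of Eci2 was 0.25 and that of Vnn1 was 0.38. Without HFD+As replicate 2, Hsd17b10 (0.51) and Hadhb (0.36) did not pass and Abcd3 did. Without either LFD+As pool, which changes only the shared estimate of spread, Hadhb and Eci2 did not pass. The call of Hsd17b10 in HFD+As against HFD held without either LFD+As pool and was lost without each of the other 6, with differences of 0.52 to 0.72 and adjusted p from 0.0575 to 0.166. The call of Acot2 in HFD+As against LFD+As held without any LFD or HFD pool and was lost without each of the other 4, with differences of -0.48 to -0.36 and adjusted p from 0.139 to 0.265.

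Diet alone changed none of these genes past the test. In HFD against LFD limma called 0 of 37, against 0.46% of all genes, and 8 (21.6%) had an unadjusted p under 0.05, against 10.3% of all genes. Those 8 were Eci2 and Vnn1 (above), Slc25a20 (0.39), Decr1 (0.33), Hadhb (0.30), Acadl (0.28), Creb3l3 (0.27) and Acot2 (-0.49). Acot2 had the smallest adjusted p, 0.135. The difference was above 0 for 30 of the 37 genes (81.1%), against 53.3% of all genes, and the median was 0.13, against 0.01. With the gene-span trend removed 27 were above 0 and the median was 0.10. The pools did not overlap for 24 genes, 22 with HFD higher and 2 with HFD lower (all genes, 21.7% and 16.5%).

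Arsenite on the low fat diet gave a like picture. In LFD+As against LFD limma called 0 of 37, against 0.0669% of all genes, and 7 (18.9%) had an unadjusted p under 0.05, against 3.35% of all genes, all with an adjusted p of 0.9998. They were Hsd17b10 (0.39), Slc25a20 (0.33), Decr1 (0.30), Pex11a (0.28), Hadhb (0.27), Ech1 (0.25) and Acot2 (-0.28). The difference was above 0 for 29 of 37 (78.4%), against 47.5% of all genes, with a median of 0.13, against -0.01, and both were the same with the gene-span trend removed. Pools did not overlap for 19 genes with LFD+As higher and 2 with it lower (all genes, 12.7% and 15.8%). These comparisons and HFD+As against LFD share the 2 LFD arrays. On LFD replicate 2 only 5 of the 37 genes lay above their mean over all arrays, against 15 to 28 on the other arrays. Their median deviation was -0.12 on LFD replicate 2, against -0.02 for all genes tested. On LFD replicate 1 it was -0.03, against 0.07, so on both LFD arrays these genes lay below all genes. Without LFD replicate 2 the median difference was 0.05 in LFD+As against LFD and 0.09 in HFD against LFD (all genes, -0.06 and -0.03). Without LFD replicate 1 it was 0.19 and 0.18 (all genes, 0.05 and 0.07), so the median of all genes moved the same way.

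Arsenite on the high fat diet went the other way for many of the same genes. In HFD+As against HFD, 27 of 37 differences were below 0, against 72.3% of all genes, with a median of -0.08, against -0.13 for all genes, so that the genes went with the background. That direction turned with the gene-span trend removed, when 24 of 37 were above 0 and the median was 0.07. In HFD+As against LFD+As, 24 of 37 were below 0, against 65.6% of all genes, with a median of -0.10, against -0.09 for all genes, and it also turned, to 0.07 with 23 above 0. Pools did not overlap for 13 genes lower and 4 higher in the former comparison (all genes, 45.8% and 10.7%) and for 15 lower and 7 higher in the latter (43.8% and 15.6%).

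In the carnitine shuttle, no gene passed the test, and the genes differed in how arsenite went with diet. Slc25a20 read 10.40 and 10.18 on the LFD arrays, 10.57 and 10.67 on LFD+As, 10.66 and 10.70 on HFD and 10.37 and 10.38 on HFD+As. Either exposure alone gave higher readings than LFD, and both together gave readings within the LFD range. The interaction, the arsenite difference on HFD minus that on LFD, was -0.63 (SE 0.17, adjusted p = 0.19), and -0.48 with the gene-span trend removed. Cpt1a, the carnitine palmitoyltransferase of the outer membrane and a control point of the pathway, read 11.74 and 11.72 on the LFD arrays, 11.95 and 11.84 on LFD+As, 12.04 and 11.75 on HFD and 11.55 and 11.65 on HFD+As. Its interaction was -0.46 (adjusted p = 0.30), and -0.26 with the span trend removed. Its difference in HFD+As against HFD was -0.30, and -0.09 with the span trend removed. Cpt2, which reforms acyl-CoA inside, varied from 11.39 to 11.61 over the 8 pools, with an interaction of -0.09 that turned to 0.06 with the trend removed.

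The other mitochondrial enzymes were not called. Decr1, which reduces dienoyl-CoA from unsaturated fatty acids, came nearest. It read 11.08 and 11.00 on the LFD arrays, 11.35 and 11.33 on LFD+As, 11.31 and 11.43 on HFD and 11.43 and 11.33 on HFD+As. The LFD pools were the lowest, as for Hadhb, and the difference of HFD+As from LFD was 0.34 (SE 0.11, adjusted p = 0.059). Eci1, the mitochondrial enoyl-CoA isomerase, ran from 11.11 to 11.48, with a difference of 0.26 in the same comparison. Hadh, the dehydrogenase of medium and short chains, ran from 12.83 to 12.98, and Acaa2, the thiolase of the matrix, from 13.36 to 13.67.

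The acyl-CoA dehydrogenases, which take the first step for chains of different length, were not called in any comparison. Acadm, for medium chains, was 12.50 and 12.38 on the LFD arrays, 12.69 and 12.62 on LFD+As, 12.52 and 12.37 on HFD and 12.24 and 12.39 on HFD+As. Its difference of HFD+As from LFD+As was -0.34 (adjusted p = 0.0808), the largest among the 4. Acadvl, for very long chains, differed by 0.26 between HFD+As and LFD (adjusted p = 0.152), and Acads, for short chains, stayed between 10.71 and 10.97. Acadl, for long chains, ran from 10.47 to 10.92. Etfa, Etfb and Etfdh carry the electrons on to the respiratory chain, and none was called. Etfdh read 11.84 on average in LFD, 11.89 in LFD+As, 11.97 in HFD and 11.65 in HFD+As, with a difference of -0.32 in HFD+As against HFD (adjusted p = 0.0995), and -0.16 with the span trend removed.

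The 12 peroxisomal genes gave no call in any of the 6 comparisons, the interaction included. Over all genes the share called ran from 0% in the interaction to 16% in HFD+As against LFD. In the latter, 3 of the 18 mitochondrial genes (16.7%) were called. The median of the peroxisomal genes was 0.07 in LFD+As against LFD, 0.07 in HFD against LFD and -0.07 in HFD+As against LFD. For the 18 mitochondrial genes it was 0.13, 0.14 and 0.03. With the gene-span trend removed the last pair was -0.0029 and 0.17. Whether the organelles differ was not tested. Ehhadh, the bifunctional enzyme often used as a marker of PPAR-alpha activation, read 11.69 and 11.47 on the LFD arrays, 11.79 and 11.65 on LFD+As, 11.53 and 11.45 on HFD and 11.52 and 11.48 on HFD+As. The LFD+As pools lay above all HFD and HFD+As pools and overlapped LFD, and no difference passed the test. Abcd3, an importer of fatty acids in the peroxisome membrane, read 12.17 and 12.16 on the LFD arrays, 11.99 and 12.24 on LFD+As, 12.19 and 12.19 on HFD and 11.65 and 11.90 on HFD+As. Both HFD+As pools were below all others, and the difference from LFD was -0.39 (SE 0.13, adjusted p = 0.0548). Abcd3 spans 56.4 kb, and with the gene-span trend removed that difference was -0.18. Pex11a, which promotes peroxisome division, read 11.10 and 11.02 on the LFD arrays, 11.31 and 11.37 on LFD+As, 11.32 and 11.26 on HFD and 11.13 and 11.04 on HFD+As. Like Slc25a20 it was higher with either exposure and near the LFD readings with both, with an interaction of -0.48 (adjusted p = 0.259).

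The other peroxisomal oxidation enzymes varied little. Hsd17b4, the bifunctional enzyme for branched chains, ran from 11.67 to 11.90 over the 8 pools, Decr2, the peroxisomal dienoyl-CoA reductase, from 11.86 to 12.14, and Acaa1a, a thiolase, from 9.16 to 9.50. Crot, which hands shortened chains to carnitine, ran from 12.41 to 12.82. The thioesterase Acot8 ran from 8.39 to 8.63, and the cytosolic Acot12 from 11.41 to 11.75.

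Spread between pools limited several peroxisomal genes. Acaa1b, a peroxisomal thiolase, read 9.90 and 10.72 in the LFD+As pools and 10.44 and 9.64 in the HFD+As pools, gaps wider than any difference between its group means. Abcd2, a transporter of very long-chain acyl-CoA, read 8.67 and 7.89 in LFD. Acot3 and Acot4, neighbouring peroxisomal thioesterases, read 7.16 and 8.01, and 9.04 and 9.77, in HFD. Wide gaps were also seen in other genes. In HFD+As the pools lay 0.50 apart for Vnn1 and 0.38 for Eci2, and in LFD+As 0.42 for Fgf21 and 0.38 for Hsd17b10. The median gap over all 37 genes was 0.08 to 0.12 in the 4 groups, against 0.09 to 0.15 over all genes. Acaa1a and Acaa1b are closely related genes, as are the Acot genes above, and whether their probes read 1 gene each was not tested.

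**Figure D4:**
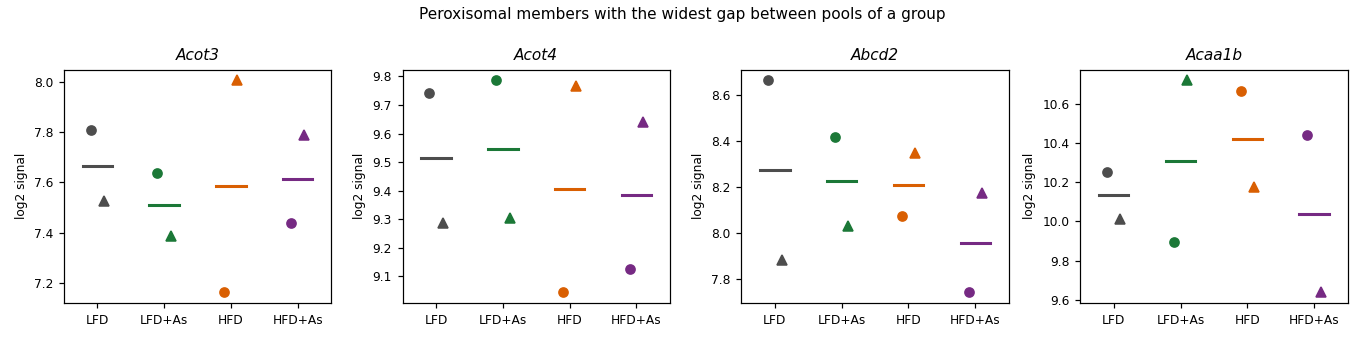
Log2 signal of Acot3, Acot4, Abcd2 and Acaa1b in each pool by group; circles are replicate 1, triangles replicate 2 and bars the mean of both. The pools of 1 group lie up to 0.84 apart (Acot3 in HFD), wider than the gaps between group means.

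Of the regulators, none but Vnn1 was called. Ppara itself read 10.61 and 10.59 on the LFD arrays, 10.76 and 10.60 on LFD+As, 10.88 and 10.65 on HFD and 10.36 and 10.63 on HFD+As. The HFD pools lay above those of LFD and HFD+As, the LFD+As pools overlapped LFD and HFD, and no difference passed the test. Creb3l3, a membrane-bound transcription factor that works with PPAR-alpha in fasting, averaged 10.57 in LFD and 10.80, 10.84 and 10.79 in LFD+As, HFD and HFD+As. Fgf21, the hormone that both induce, lay just above the signal filter of 6.975, from 6.70 to 7.24 over the 8 pools. The thioesterase Acot1 was the 1 gene below the filter and was not tested. Its values ran from 6.40 to 7.20.

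The arsenite effect was above 0 on LFD and below 0 on HFD for 21 of the 37 genes (56.8%), against 35.1% of all genes, in comparisons that share no arrays. With the gene-span trend removed it was 9 of 37 (24.3%), against 24.4% of all genes. The interaction was below 0 for 32 of the 37 (86.5%), against 68.4% of all genes, with a median of -0.20 against -0.12, and with the trend removed for 23 of 37, with a median of -0.05. Limma called 0 of the 37 in the interaction, as it called 0% of all genes, and 4 (10.8%) had an unadjusted p under 0.05, against 13.9% of all genes. These were Slc25a20, Pex11a, Cpt1a and Etfdh (-0.38, adjusted p = 0.326), and their share is not above the background.

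**Figure D5:**
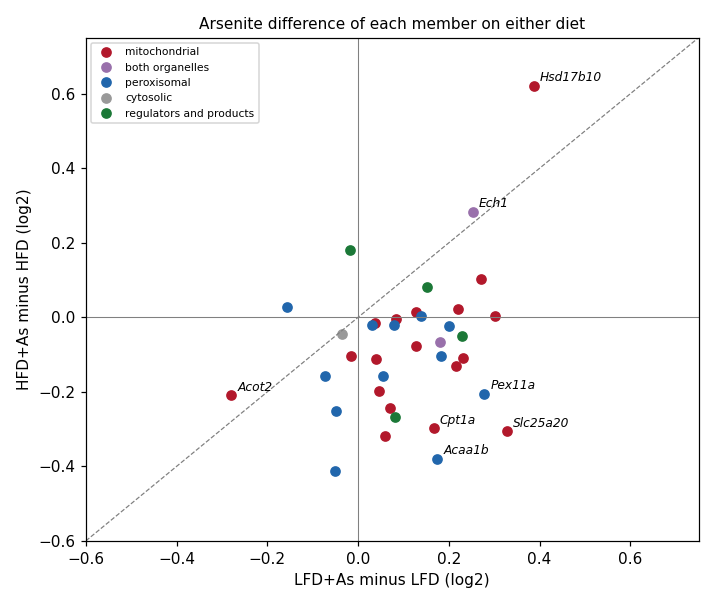
Arsenite difference on HFD (vertical, log2) against that on LFD (horizontal, log2) for the 37 genes tested, in colour by organelle, with a dashed line where both are equal. Most points, 21 of 37, lie above 0 on LFD and below 0 on HFD; with the gene-span trend removed 9 do.

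A longer list of the pathway, 104 genes outside the 38 covering ketone body synthesis, lipid handling, microsomal oxidation and regulators, had 90 genes on the array and 83 tested. In LFD+As against LFD 0 were called, against 0.0669% of all genes, and 6 (7.23%) had an unadjusted p under 0.05, against 3.35%. In HFD against LFD 1 of 83 (1.2%) was called, against 0.46% of all genes. It was Angptl4, the lipoprotein lipase inhibitor and a PPAR target, higher by 1.13 (SE 0.13, adjusted p = 0.00417, limma). Without LFD replicate 1 it was 1.18 (adjusted p = 0.0645) and without LFD replicate 2 it was 1.09 (adjusted p = 0.0525). The median of the 83 in HFD+As against LFD was -0.11, and -0.04 with the gene-span trend removed (all genes, -0.10 and 0.0019). In that comparison 7 rose and 14 fell, 25.3% of the 83, against 16% of all genes. Among them were Acacb, which makes the malonyl-CoA that inhibits Cpt1a, at -1.46, the receptor Ppard at -1.36 and Angptl4 at 1.02. Each of these 3 was called whichever array was left out. Pdk4, the kinase that spares pyruvate, was at -1.04 and lost its call without LFD replicate 1 (-0.66) and without either HFD+As pool (-1.26 and -0.82). In HFD+As against HFD 4 rose and 6 fell, 12.1% of the 83, against 3.63% of all genes. Those that fell included Ppard at -1.50 and Acacb at -1.39, the latter lost without HFD+As replicate 1 (-1.23). Those that rose included Cyp4a31 at 1.19 and Cyp4a14 at 0.95, microsomal fatty acid hydroxylases whose family is a classic target of PPAR-alpha. The call of Cyp4a31 held without HFD replicate 2 or either LFD+As array, and was lost without any other array (0.94 to 1.44). That of Cyp4a14 was lost without HFD replicate 1 (0.80), HFD+As replicate 1 (1.08) or HFD+As replicate 2 (0.83). Genes of the Cyp4a family are closely related, and whether their probes read 1 gene each was not tested. In HFD+As against LFD+As 1 rose and 7 fell, with Ppard at -1.64. This was 9.64% of the 83, against 10.3% of all genes, and not above that background. These 3 comparisons share the HFD+As arrays.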

How the data were processed

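Liver RNA pools were read on Affymetrix arrays, 2 per group. For each transcript cluster the authors deposited a log2 signal; the submitters' processing notes name Affymetrix Expression Console 1.0, and the normalization is not given in the sources used here. Symbols came from GEO's platform annotation, in which 21789 of 35556 clusters have 1 symbol, 1621 several and the rest none. The cluster with the highest mean stood for a gene, and the 60% of genes with the highest mean (at least 6.975) were tested.

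All 8 arrays were fitted with 1 mean per group in limma 3.58.1 (R 4.3.3; 4 residual degrees of freedom), with Benjamini-Hochberg adjustment over 11963 genes; the scripts were tested on simulated data. The spread of each gene was moderated toward that of all genes tested, which added 9.32 prior degrees of freedom. Every SE and p-value given is moderated in this way. The median SE was 0.127, and the number of arrays limits the precision. The 7 alternative settings and the omission of each array are given in the closing section.

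Members, lists and the rule for named genes were chosen with earlier results of these data known. The rule gives values per pool for called members and for Ppara, Cpt1a, Acadm, Ehhadh, Fgf21 and Vnn1, and for at most 5 called genes of the longer list per comparison, those with the largest change. Slc25a20, Hadha, Decr1, Pex11a, Abcd3, Abcd2, Acaa1b, Acot3 and Acot4 were added after their values were seen. Neighbours and spans came from RefSeq (GRCm38.p6).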

Additional observations from a re-analysis of the deposited data

How the results depend on the processing

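With 2 pools a group, calls rest on single pools, and the smallest difference called among the members in the fit reported was 0.40. Called differences kept their direction under every setting run; the members' median turned sign where named. Apart from the omissions of single arrays, the other medians over all 37 members kept to within 1 SD of the member median between pools (0.0331), and the other counts of members called to within 1.5 times the count reported. The cause of each change was not tested. Of the called members in HFD+As against LFD (6), 4 remained called without the signal filter and with array medians subtracted, all 6 under quantile normalization (with Decr1 and Abcd3 added) and with the gene-span trend removed (with Decr1 added), and 5 with an intensity trend in eBayes (Abcd3 for Eci2). The call of Hsd17b10 in HFD+As against HFD fell to 0 without the filter, under quantile normalization, with array medians subtracted and with the span trend removed, while its difference stayed at 0.59 to 0.64 against 0.62. The call of Acot2 in HFD+As against LFD+As fell to 0 under the same 4 settings and with the replicate block, with differences of -0.43 to -0.33 against -0.42; with the intensity trend Acadm replaced it (adjusted p = 0.0457, limma).

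The member median in HFD against LFD was 0.0958 under quantile normalization and 0.181 with array medians subtracted (all genes, 0.0072 and 0.0596). With the span trend removed it was 0.125 in HFD+As against LFD, 0.0651 in HFD+As against HFD, 0.0674 in HFD+As against LFD+As and -0.0511 in the interaction. Under quantile normalization it was -0.0374 in HFD+As against LFD+As and -0.147 in the interaction, which was -0.243 with array medians subtracted. The matching medians of all genes were -0.0449, -0.0623 and -0.161. The span trend moved the median of all genes from -0.125 to 0.0011 in HFD+As against HFD and from -0.122 to 0.0015 in the interaction.

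Leaving out 1 array at a time, the member median ranged from 0.0539 to 0.186 in LFD+As against LFD, from 0.0902 to 0.176 in HFD against LFD, from -0.0242 to 0.0693 in HFD+As against LFD, from -0.126 to -0.0575 in HFD+As against HFD, from -0.0962 to -0.0439 in HFD+As against LFD+As and from -0.256 to -0.154 in the interaction. In the comparisons against LFD, in that order, the median of all genes ranged from -0.057 to 0.0483, -0.0288 to 0.0679 and -0.144 to -0.066. In the others it ranged from -0.161 to -0.0854, -0.0966 to -0.0803 and -0.188 to -0.0622. The number of members called ranged from 0 to 6 in HFD+As against LFD and from 0 to 1 in HFD+As against HFD and in HFD+As against LFD+As, where Vnn1 (0.72, adjusted p = 0.0174, limma) replaced Acot2 without HFD+As replicate 2. It was 0 throughout in the others.

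Over all genes tested, limma's 1909 calls in HFD+As against LFD became 1084 without the filter, 1013 with array medians subtracted and 1131 with the span trend removed (544 higher and 587 lower). The 434 in HFD+As against HFD became 29 without the filter, 104 under quantile normalization, 125 with array medians subtracted, 44 with the span trend removed and 230 with the replicate block. The 1227 in HFD+As against LFD+As became 165 without the filter, 214 with array medians subtracted and 64 with the span trend removed. The 55 in HFD against LFD became 13 without the filter, and the 8 in LFD+As against LFD became 1 there, 5 under quantile normalization, 5 with array medians subtracted and 13 with the intensity trend. The 0 of the interaction became 12 with the intensity trend. Replicate numbers did not pair the pools: deviations from group means correlated from -0.217 to 0.179 between same-numbered pools, and the replicate block changed no other member count.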
